A study of Mus musculus with 48 samples.

Results

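The livers of FCG mice, a model that separates gonads from sex chromosomes, on a high-fat diet were examined for 30 genes of Kupffer cells and other macrophages, which were taken from the liver RNA-seq counts by name out of 55414 gene identifiers. The list holds 5 resident Kupffer cell genes (*Clec4f*, *Vsig4*, *Timd4*, *Marco*, *Cd5l*), 14 genes shared by most macrophages, called pan-macrophage here (*Adgre1*, *Cd68*, *Csf1r*, *Lyz2*, *Mpeg1*, *Aif1*, *C1qa*, *C1qb*, *C1qc*, *Fcgr1*, *Cd14*, *Tyrobp*, *Fcer1g*, *Ctss*), 4 genes of recruited monocytes (*Itgam*, *Ccr2*, *Ly6c2*, *Cx3cr1*) and 7 genes of lipid-associated macrophages (*Trem2*, *Gpnmb*, *Cd9*, *Spp1*, *Lgals3*, *Itgax*, *Mmp12*). All 30 had enough reads to be tested among 15414 genes. The members were taken by name, without a threshold on any measured value.

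In the FCG model the testis-determining gene *Sry* is deleted from the Y chromosome (written Y-), and an *Sry* transgene (SryTg) sits on an autosome, so that the type of gonad and the sex chromosomes segregate separately. The 4 genotypes were XX and XY- with ovaries (Ov), and XX;SryTg and XY-;SryTg with testes (Te). All mice were C57BL/6, and every XY animal here carries the Y- chromosome. Each genotype was kept with its gonads (Intact) or had them removed at 75 days of age (GDX), which gives 8 groups of 6 mice. Per the labels a diet with 60% of calories from fat began at 15 to 17 weeks of age and lasted 11 weeks in Intact mice and 15 weeks in GDX mice, while the methods of the study give other durations. By the labels the Intact mice were therefore 26 to 28 weeks old and the GDX mice 30 to 32 weeks old at the end of the diet. The mice were fasted for 6 h before the livers were taken. Gonadectomy, longer feeding, older age and a difference in library makeup given later all separate the GDX from the Intact mice and cannot be told apart in any GDX comparison.

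Kupffer cells are the resident macrophages of the liver. They sit inside the sinusoids, are seeded before birth, and clear particles, bacteria and aged red cells from portal blood through scavenger and complement receptors such as MARCO and CRIg, the product of *Vsig4*. When they are lost, or when the liver is fatty or injured, blood monocytes that carry CCR2 and Ly6C enter the liver and can take on macrophage identity, and some of them turn on a lipid-associated program with *Trem2*, *Gpnmb* and *Spp1*. Several of the 30 genes are not exclusive to macrophages: *Itgam*, *Fcer1g* and *Tyrobp* are also expressed by neutrophils and natural killer cells, *Itgax* by dendritic cells, *Spp1* by cholangiocytes and *Cd9* by many cells. In bulk liver a lower value can come from fewer cells of a type or from less RNA of the gene per cell, and these cannot be told apart.

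The proximal promoters of 3 members are shown. *Itgax* and *Itgam* had the largest differences toward XY livers, and *Mmp12* had the largest toward XX livers. Each line below gives the 250 bases before a RefSeq start site, 5′ to 3′ on the coding strand, from the GRCm38.p6 tables. Capitals mark matches to 3 short motifs that were searched on both strands: GAGGAA, which reads TTCCTC on the other strand and is a core of sites for the macrophage factor PU.1, then TGANTCA, which is the AP-1 site, and finally CCAAT, which reads ATTGG on the other strand. The E-box CACGTG was also searched. The *Mmp12* gene has 2 start sites in the table. *Itgam* and *Itgax* encode the integrins CD11b and CD11c and are neighbours on chromosome 7, within 88.0 kb.
Itgax, chr7:128129300-128129549 (+): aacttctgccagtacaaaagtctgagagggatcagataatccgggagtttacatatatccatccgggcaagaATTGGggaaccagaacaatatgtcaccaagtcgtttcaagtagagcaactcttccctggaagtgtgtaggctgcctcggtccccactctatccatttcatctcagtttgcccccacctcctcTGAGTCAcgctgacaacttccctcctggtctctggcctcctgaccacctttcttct
Itgam, chr7:128062390-128062639 (+): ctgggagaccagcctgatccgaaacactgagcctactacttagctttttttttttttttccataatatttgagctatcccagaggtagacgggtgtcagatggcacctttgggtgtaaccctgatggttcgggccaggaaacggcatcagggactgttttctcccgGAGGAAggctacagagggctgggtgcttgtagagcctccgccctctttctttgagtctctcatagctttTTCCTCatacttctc
Mmp12, chr9:7344147-7344396 (+): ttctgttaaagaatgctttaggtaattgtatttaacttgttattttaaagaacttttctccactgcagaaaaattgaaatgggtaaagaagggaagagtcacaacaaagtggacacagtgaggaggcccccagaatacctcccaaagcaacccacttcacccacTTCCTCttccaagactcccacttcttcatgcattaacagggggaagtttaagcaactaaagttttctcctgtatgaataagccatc
Mmp12, chr9:7347124-7347373 (+): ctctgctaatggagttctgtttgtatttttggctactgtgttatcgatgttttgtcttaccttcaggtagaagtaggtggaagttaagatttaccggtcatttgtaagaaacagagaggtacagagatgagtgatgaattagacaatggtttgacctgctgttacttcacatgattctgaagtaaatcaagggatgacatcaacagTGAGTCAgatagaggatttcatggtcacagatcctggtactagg

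*Itgam* held 2 PU.1-type cores in this window, *Itgax* held 1 AP-1 site and 1 CCAAT box, and the *Mmp12* windows held 1 PU.1-type core and 1 AP-1 site. The window of *Gpnmb*, also examined and not shown, held none of these motifs. Of the 25 members with an entry, 14 (56.0%) held a PU.1-type core, compared with 25.9% of 27025 genes with a window of the same length. A CCAAT box was present for 9 members (36.0%) and for 37.5% of all genes. An AP-1 site was present for 4 members, *Cd68*, *Itgax*, *Mmp12* and *Trem2* (16%), and for 7.82% of all genes. The E-box was present for none of the 25 members and for 6.86% of all genes. A match of letters describes the sequence and is not a bound site.

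Before the results, some libraries stood apart. Each library held 13071874 to 20045141 reads in genes, and 3 reads corresponded to 0.131 to 0.254 CPM, the read count of a gene relative to the library size after TMM scaling. Reads outside genes made up 3.47% to 6.2% of Intact libraries and 8.52% to 11.3% of GDX libraries, with no overlap. In the XY Te Intact group, replicates 1 to 4 had 16.2% to 18.9% multimapping reads, against at most 14.4% in every other library of the study. XX Te Intact replicate 2 had the highest value of its group for all 30 members. The labels were checked with Y-linked genes, whose summed level was 0 to 11.6 CPM in XX and 124 to 268 CPM in XY mice. The highest XX value was that of XX Te Intact replicate 4, and the next was 2.88 CPM. The counts of each comparison over both gonads or both genotypes were also computed without these libraries. Without the 4 libraries of high multimapping only 2 mice were left in XY Te Intact, so a lower count there can also come from fewer mice. The liver gene *Alb*, which encodes albumin, was at 47900 to 119000 CPM, and the defining Kupffer cell gene *Clec4f* was present in all 48 mice, at 47.1 to 249 CPM.

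Per length of transcript, the highest members over the 48 mice were *Lyz2* (lysozyme), with a median level of 82.9 RPKM, and *C1qb* (a chain of complement C1q), at 74.7 RPKM. *Ctss* (the protease cathepsin S) followed with a level of 67 RPKM and *Cd5l* (a secreted scavenger protein of Kupffer cells) with 66.9 RPKM. The lowest level was that of *Itgam*, at 0.189 RPKM. Among the resident genes, *Vsig4* had a median level of 41.2 RPKM and *Clec4f* of 39.5 RPKM, while *Marco* reached 7.6 RPKM and *Timd4* 6.8 RPKM. The monocyte receptor gene *Ccr2* had a level of 0.649 RPKM and *Gpnmb* of 0.24 RPKM. All 4 recruited monocyte genes had median levels below those of every resident and pan-macrophage gene, of which the lowest was *Fcgr1* at 3.38 RPKM. Of the lipid-associated genes *Spp1* had the highest level, at 16.8 RPKM. The XY Ov Intact group held the highest group median of 14 members and the XY Ov GDX group that of 9, while the XX Te Intact group held the lowest median of 15.

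The first comparison set XX against XY mice with the type of gonad balanced. Every XY mouse here carries Y-, on which a piece of the X chromosome has been described in some FCG mice. Some X-linked genes were also higher in XY, as given under the other observations. The part of such a piece in the differences below was not tested. Most macrophage genes were higher in XY than in XX livers, both with gonads and without them. In Intact mice 22 of 30 members passed the test (adjusted p below 0.05, edgeR quasi-likelihood test over 15414 genes), 21 higher in XY and 1 higher in XX, and the median log2 fold change (XX minus XY) of the 30 was -0.81. Of all genes tested, 10.7% passed, 6.42% higher in XY and 4.27% higher in XX, with a median of 0.02. In GDX mice 26 of 30 members passed, 23 higher in XY and 3 higher in XX, with a median of -1.60. Here 34.3% of all genes passed, 14.8% higher in XY and 19.5% higher in XX, with a median of 0.08. Over both cohorts 27 members passed, 24 of them higher in XY, beside 36.7% of all genes.

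By subset, the pan-macrophage genes were the most uniform, with 13 of 14 higher in XY in Intact mice and all 14 in GDX mice. Of the resident Kupffer cell genes, 2 of 5 were higher in XY in Intact mice and 4 of 5 in GDX mice. Among the recruited monocyte genes, 3 of 4 were higher in XY in both cohorts, and *Ccr2* did not pass in either. The lipid-associated genes were split: in Intact mice 3 of 7 were higher in XY and 1 in XX, and in GDX mice 2 were higher in XY and 3 in XX.

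**Figure D1:**
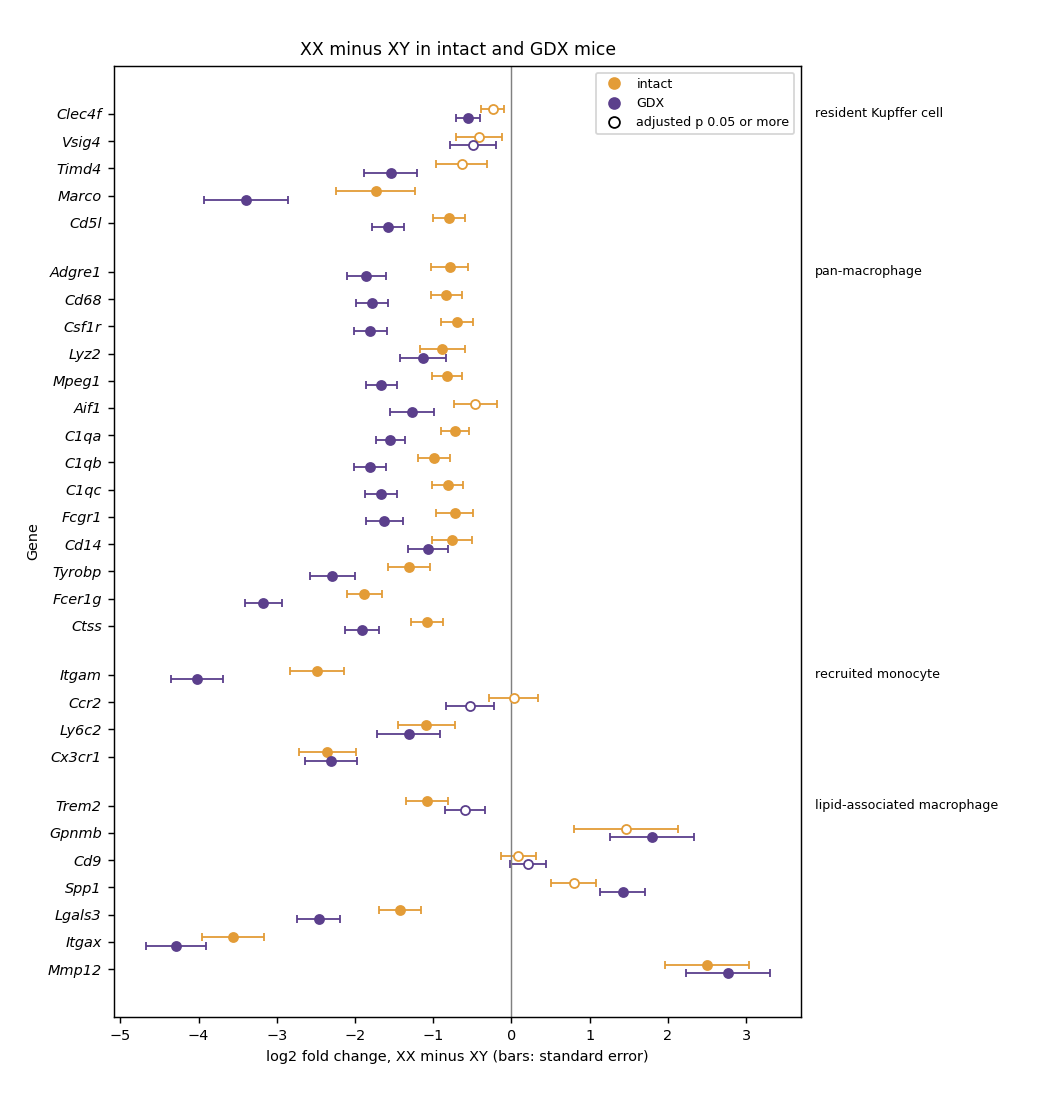
Log2 fold change, XX minus XY (x axis, with standard errors), of each of the 30 genes (y axis, by subset) in Intact mice (orange) and GDX mice (purple), 24 mice each. Open circles did not pass the test. Most genes lie left of 0, with *Itgax* farthest left at -3.56 and -4.29, and *Mmp12* farthest right at 2.5 and 2.76.

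The largest difference was that of *Itgax*, the CD11c gene. In Intact mice it lay at 0.565 to 4.76 CPM (median 1.58) in the 12 XX livers and at 1.36 to 44.3 CPM (median 28.2) in the 12 XY livers. The log2 fold change was -3.56 ± 0.39 (SE, adjusted p = 4.36e-09), a level 11.8-fold higher in XY. The overlap came from the XY Te Intact group, in which replicates 2, 3 and 4 lay at 1.64, 1.36 and 3.87 CPM and the other three at 20.5, 38.6 and 26.7 CPM. Those 3 low mice are among the 4 libraries of high multimapping, without which the log2 fold change of *Itgax* was -4.10 ± 0.31 (SE, adjusted p = 1.46e-13). In GDX mice the ranges were 1.39 to 9.01 CPM (median 3.65) in XX and 47.7 to 132 CPM (median 81.8) in XY, which did not overlap, and the log2 fold change was -4.29 ± 0.39 (SE, adjusted p = 1.92e-12). Its neighbour *Itgam*, the CD11b gene of monocytes and neutrophils, was at 0.303 to 1.54 CPM (median 0.541) in Intact XX livers and 0.545 to 10.4 CPM (median 3.48) in Intact XY livers, with a log2 fold change of -2.49 ± 0.34 (SE, adjusted p = 5.01e-07). After GDX the XX and XY ranges of *Itgam* did not overlap either, at 0.121 to 1.26 CPM (median 0.557) and 4.57 to 22.1 CPM (median 11). The log2 fold change was then -4.02 ± 0.33 (SE, adjusted p = 2.05e-13). The low end of the XX values of *Itgam* was near 3 reads.

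**Figure D2:**
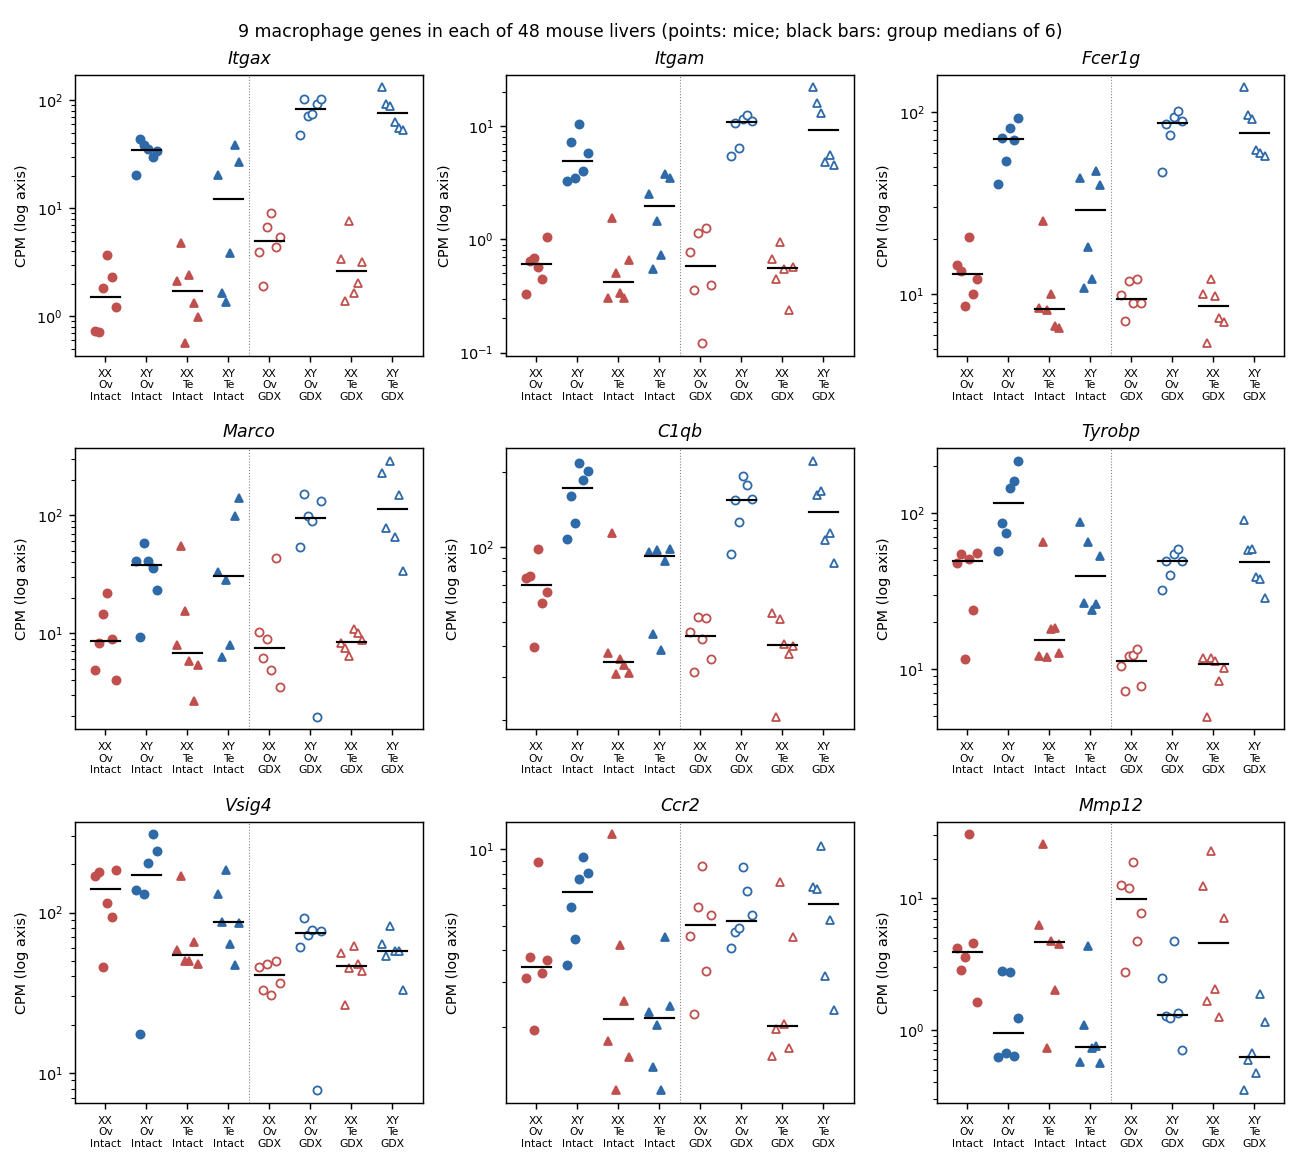
Level of 9 members in each mouse (CPM, log axis) in the 8 groups (x axis); red is XX and blue XY, circles are Ov and triangles Te, filled symbols Intact and open symbols GDX, and bars are medians of 6. For *Itgax*, *Itgam* and *Fcer1g* all 12 XY GDX mice lie above all 12 XX GDX mice, while *Mmp12* is lower in XY.

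The adaptor chains that pair with activating receptors were higher in XY as well. *Fcer1g*, the signalling chain of Fc receptors, was at 6.55 to 25.2 CPM (median 10.1) in Intact XX and 10.8 to 92.6 CPM (median 45.4) in Intact XY livers, with a log2 fold change of -1.88 ± 0.23 (SE, adjusted p = 2.64e-08). In GDX livers the XX range was 5.39 to 12.2 CPM (median 9.41) and the XY range 47.2 to 137 CPM (median 87.6), and the log2 fold change was -3.17 ± 0.24 (SE, adjusted p = 1.02e-14). *Tyrobp*, which encodes DAP12, the partner of TREM2, had log2 fold changes of -1.31 ± 0.27 (SE, adjusted p = 0.000522) in Intact mice and -2.29 ± 0.28 (SE, adjusted p = 7.73e-09) in GDX mice. The 2 cohorts differed in how far the mice overlapped: XX and XY ranges of *Tyrobp* were 11.5 to 65.6 CPM (median 21) and 23.9 to 216 CPM (median 69.9) with gonads, and 4.94 to 13.5 CPM (median 10.9) and 28.7 to 90.2 CPM (median 49.3) without. The Fc receptor gene *Fcgr1* itself had log2 fold changes of -0.73 ± 0.23 (SE) in Intact mice and -1.62 ± 0.24 (SE) in GDX mice, both passing.

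*Adgre1*, which encodes the F4/80 antigen, was at 7.1 to 28.2 CPM (median 20.6) in GDX XX livers and 30.4 to 156 CPM (median 59.3) in GDX XY livers. Its log2 fold change was -1.85 ± 0.25 (SE, adjusted p = 4.33e-08) in GDX and -0.79 ± 0.24 (SE, adjusted p = 0.024) in Intact mice. *Csf1r*, the receptor for the growth factors that keep macrophages alive, had log2 fold changes of -0.69 ± 0.20 (SE) and -1.80 ± 0.21 (SE). The lysosomal marker *Cd68* had -0.83 ± 0.20 (SE) and -1.78 ± 0.20 (SE), in Intact and GDX mice respectively, as for the other pairs in this paragraph. *Mpeg1*, which encodes the pore-forming perforin-2, had -0.82 ± 0.19 (SE) and -1.67 ± 0.20 (SE). All of these passed in both cohorts, and in GDX mice the XX and XY ranges of all 4 were apart. *Lyz2*, which neutrophils also express and which shares sequence with its copy *Lyz1*, had -0.88 ± 0.29 (SE) and -1.13 ± 0.29 (SE), both passing, with overlapping ranges. *Aif1*, which encodes the actin-binding protein IBA1, did not pass in Intact mice (-0.46 ± 0.27 SE) and passed in GDX mice (-1.27 ± 0.28 SE). *Cd14*, the coreceptor for lipopolysaccharide, passed in both, at -0.76 ± 0.26 (SE) and -1.07 ± 0.25 (SE).

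The 3 chains of complement C1q, which Kupffer cells secrete and which lie within 18.7 kb on chromosome 4, had differences of like size. *C1qb* was at 30.7 to 114 CPM (median 49.4) in Intact XX and 38.5 to 218 CPM (median 103) in Intact XY livers, a log2 fold change of -0.99 ± 0.20 (SE, adjusted p = 0.000391). After GDX the ranges were 20.7 to 54.3 CPM (median 41.6) and 86.1 to 222 CPM (median 155), which were apart, and the log2 fold change was -1.81 ± 0.20 (SE, adjusted p = 7.56e-10). *C1qa* had log2 fold changes of -0.72 ± 0.18 (SE) and -1.55 ± 0.19 (SE) and *C1qc* of -0.82 ± 0.20 (SE) and -1.67 ± 0.20 (SE). The antigen-processing protease gene *Ctss* was similar, at -1.08 ± 0.21 (SE) and -1.91 ± 0.21 (SE). All 4 genes passed in both cohorts.

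The resident Kupffer cell genes did not behave alike. *Marco*, a scavenger receptor for bacteria and particles, was at 2.67 to 54.9 CPM (median 8.04) in XX and 6.31 to 141 CPM (median 34.2) in XY Intact livers, with a log2 fold change of -1.74 ± 0.50 (SE, adjusted p = 0.0173). In GDX mice it was -3.39 ± 0.53 (SE, adjusted p = 1.59e-06), with 3.48 to 43.8 CPM (median 8.46) in XX and 1.96 to 289 CPM (median 94.3) in XY. The XX and XY ranges overlapped through XX Ov GDX replicate 5, at 43.8 CPM, and XY Ov GDX replicate 5, at 1.96 CPM. *Cd5l* had log2 fold changes of -0.80 ± 0.21 (SE, adjusted p = 0.00593) and -1.58 ± 0.21 (SE, adjusted p = 3.85e-08). *Timd4*, a receptor for phosphatidylserine that marks embryonically seeded Kupffer cells, did not pass in Intact mice (-0.63 ± 0.33 SE) and passed in GDX mice (-1.54 ± 0.34 SE, adjusted p = 0.000341). *Clec4f*, a lectin of rodent Kupffer cells, likewise did not pass in Intact mice (-0.24 ± 0.15 SE) and had a log2 fold change of -0.56 ± 0.15 (SE, adjusted p = 0.00269) in GDX mice. *Vsig4*, the only member on the X chromosome, passed in neither, at -0.42 ± 0.29 (SE, adjusted p = 0.412) and -0.49 ± 0.30 (SE, adjusted p = 0.206).

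In 2 XY mice with ovaries some resident genes were low while others were not. XY Ov GDX replicate 5 had 7.81 CPM of *Vsig4*, 0.775 CPM of *Timd4* and 1.96 CPM of *Marco*, whereas the medians of its group were 74.6, 19 and 94.3 CPM. Its *Clec4f*, at 115 CPM, was close to the 121 to 159 CPM of the other 5 mice, and its *Cd5l*, at 255 CPM, was within their range. XY Ov Intact replicate 2 had 17.5 CPM of *Vsig4*, 3.66 CPM of *Timd4* and 9.26 CPM of *Marco*, against group medians of 171, 28.7 and 38.1 CPM. Its *Clec4f*, at 89.2 CPM, was also the lowest of its group, while its *Cd5l*, at 260 CPM, was within the range of the others.

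Of the recruited monocyte genes, *Cx3cr1*, the fractalkine receptor of patrolling monocytes and of some tissue macrophages, had log2 fold changes of -2.35 ± 0.36 (SE, adjusted p = 4.83e-06) in Intact mice and -2.31 ± 0.34 (SE, adjusted p = 3.41e-07) in GDX mice. It lay at 0.57 to 5.02 CPM (median 2.73) in GDX XX and 6.56 to 22.5 CPM (median 10.6) in GDX XY livers, with no overlap. *Ly6c2*, the marker of classical monocytes, had -1.09 ± 0.36 (SE, adjusted p = 0.0447) and -1.31 ± 0.40 (SE, adjusted p = 0.00854). Reads of *Ly6c2* may be shared with its near-identical copy *Ly6c1*, so that its value is uncertain. *Ccr2*, the chemokine receptor that draws monocytes out of the marrow, was at 1.13 to 11.4 CPM (median 3.19) in XX and 1.13 to 9.32 CPM (median 3.98) in XY Intact livers. Its log2 fold changes were 0.03 ± 0.31 (SE, adjusted p = 0.967) and -0.52 ± 0.31 (SE, adjusted p = 0.19), and neither passed.

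Among the lipid-associated genes *Mmp12*, which encodes macrophage elastase, ran against most of the list and was higher in XX. It lay at 0.734 to 30.5 CPM (median 4.34) in XX and 0.558 to 4.33 CPM (median 0.742) in XY Intact livers, with a log2 fold change of 2.5 ± 0.54 (SE, adjusted p = 0.00091). In GDX livers it was at 1.26 to 22.9 CPM (median 7.4) in XX and 0.349 to 4.76 CPM (median 1.19) in XY, with 2.76 ± 0.54 (SE, adjusted p = 5.6e-05). The XX values were widely spread and overlapped the XY values in both cohorts. *Gpnmb*, a glycoprotein of lipid-laden macrophages, had log2 fold changes of 1.46 ± 0.66 (SE), which did not pass, and 1.79 ± 0.54 (SE, adjusted p = 0.00753). *Spp1*, which encodes osteopontin, had 0.80 ± 0.29 (SE) in Intact mice, which did not pass (adjusted p = 0.0655), and 1.42 ± 0.29 (SE, adjusted p = 0.000107) in GDX mice. *Lgals3*, which encodes galectin-3, was higher in XY, at -1.42 ± 0.27 (SE, adjusted p = 0.000159) and -2.46 ± 0.28 (SE, adjusted p = 7.46e-10). *Trem2*, a lipid receptor of these macrophages, was higher in XY in Intact mice (-1.08 ± 0.27 SE, adjusted p = 0.00554) and did not pass in GDX mice (-0.60 ± 0.26 SE, adjusted p = 0.067). *Cd9*, a tetraspanin, passed in neither, at 0.09 ± 0.22 (SE) and 0.21 ± 0.23 (SE).

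No member had every XY Intact mouse above every XX Intact mouse, a pattern seen in 0.0454% of all tested genes. In GDX mice 14 members did, compared with 5.55% of all genes: *Adgre1*, *Cd68*, *Csf1r*, *Mpeg1*, *C1qa*, *C1qb*, *C1qc*, *Tyrobp*, *Fcer1g*, *Ctss*, *Itgam*, *Cx3cr1*, *Lgals3* and *Itgax*.

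Within each type of gonad the comparison had 6 mice on each side. Among Intact mice with ovaries 17 members passed, 16 higher in XY, beside 7.79% of all genes. Among Intact mice with testes 3 members passed, *Fcer1g* (-1.39 ± 0.32 SE), *Itgam* (-1.76 ± 0.49 SE) and *Itgax* (-2.92 ± 0.55 SE), all higher in XY, beside 2.1% of all genes. This stratum holds the 4 libraries of high multimapping among its XY mice and XX Te Intact replicate 2. The count was 6 without the 4 libraries (2.42% of all genes), 17 without replicate 2 (3.61%) and 15 without both (3.83%), all higher in XY, while with ovaries it was 18 (7.49%), 20 (8.28%) and 20 (8.26%) in the same fits. Whether the difference itself depended on the gonad was not tested. After GDX 22 members passed in mice that had had ovaries (20 higher in XY, 19.1% of all genes) and 23 in mice that had had testes (21 higher in XY, 19.4% of all genes). The median log2 fold change of the 30 was -1.01 and -0.62 in Intact mice with ovaries and with testes, and -1.57 and -1.65 after GDX. Without XX Te Intact replicate 2 that of Intact mice with testes was -1.09.

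Whether the XX minus XY difference itself changed with GDX was tested as an interaction. The median of the 30 interaction terms was -0.82, a larger difference after GDX, against 0.04 over all genes. Only *Csf1r* (-1.11 ± 0.29 SE, adjusted p = 0.0309) and *Fcer1g* (-1.29 ± 0.31 SE, adjusted p = 0.0214) passed, beside 2.12% of all genes, and 16 members had an unadjusted p below 0.05. This count depended on single mice. It was 0 without XX Te Intact replicate 2, and 1 without XX Ov Intact replicate 4 or 5, XX Ov GDX replicate 2, XY Te GDX replicate 1 or XY Te Intact replicate 2. It rose to 4 without XY Ov GDX replicate 1, XY Ov Intact replicate 6 or XY Te Intact replicate 6, to 5 without XY Te Intact replicate 3, to 6 without XY Te Intact replicate 5, and to 7 without XX Ov Intact replicate 6 or XY Te GDX replicate 6. Without the 4 libraries of high multimapping it was 0 (0.0305% of all genes). Over the fits that each lacked 1 mouse, 0.739% to 4.8% of all genes passed. For the other members a greater difference after GDX was not shown.

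The XX minus XY counts lay between 17 and 23 in Intact mice and between 26 and 27 in GDX mice when each mouse was left out in turn. Without the 4 libraries of high multimapping 19 members passed in Intact mice and 26 in GDX mice. Those that no longer passed the edgeR test in Intact mice were *Cd14* (-0.89, adjusted p = 0.0665), *Fcgr1* (-0.77, adjusted p = 0.0902) and *Lyz2* (-0.68, adjusted p = 0.268). Without XX Te Intact replicate 2 the counts were 23 and 26, and without XX Te Intact replicate 4, the XX mouse with the most Y-linked reads, 18 and 26. Scaling to library totals in place of TMM moved the median of all genes in GDX mice from 0.08 to -0.10 and the share of all genes higher in XX and in XY from 19.5% and 14.8% to 5.11% and 22.1%, with 3 and 24 members, and in Intact mice the shares became 1.82% and 5.61%, with 1 and 15 members.

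Genes of some other cells moved with the sex chromosomes too. Of all tested genes 10.7% passed in Intact mice, 6.42% higher in XY and 4.27% higher in XX. In GDX mice 34.3% passed, 14.8% higher in XY and 19.5% higher in XX. The dendritic, hepatocyte, endothelial and stellate cell lists below passed for smaller shares than all genes in GDX mice. All 9 tested neutrophil genes were higher in XY in GDX mice and 8 of 9 in Intact mice, with median log2 fold changes of -4.25 and -3.39. *Ly6g*, a defining marker, had no read in 34 of 48 mice and was not tested. The summed level of the 10 listed neutrophil genes had group medians of 4.26 to 11.5 CPM in XX and 33.8 to 156 CPM in XY mice. *S100a8*, which encodes a calcium-binding protein of neutrophils, was at 0.0592 to 0.689 CPM (median 0.381) in XX Ov GDX and 1.38 to 16.3 CPM (median 8.24) in XY Ov GDX livers. B and plasma cell genes were higher in XY for 3 of 6 in Intact and 6 of 6 in GDX mice, and their summed level had group medians of 12.3 to 20.7 CPM in XX and 31.1 to 73.4 CPM in XY. T and NK cell genes passed for 0 of 11 in Intact mice (also 0 at an unadjusted p below 0.05) and for 6 of 11, all higher in XY, in GDX mice. Dendritic cell genes passed for 0 of 6 (0 unadjusted) and 2 of 6. The part of these cells in the values of *Itgam*, *Fcer1g*, *Tyrobp*, *Itgax* and *Lyz2*, which they share, was not tested. Hepatocyte genes passed for 0 of 6 in Intact mice (0 unadjusted) and for 1 of 6, higher in XX, in GDX mice, sinusoidal endothelial genes for 1 and 2 of 10, higher in XY, stellate cell genes for 0 (1 unadjusted) and 2 of 10, and cholangiocyte genes for 0 (0 unadjusted) and 4 of 6, all 4 higher in XX. Red blood cell genes passed for 0 of 3 (3 unadjusted) and 3 of 3, with 2 higher in XY, and the 1 tested gene of adipocytes and pancreas in neither cohort.

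Other genes of the macrophage pathway were counted in 6 lists. Of all tested genes 6.42% were higher in XY and 4.27% in XX in Intact mice. The shares in GDX mice were 14.8% and 19.5%. Of 20 myeloid receptor signalling genes, such as those for the kinase SYK and the integrin chain CD18, 19 were higher in XY in Intact mice and 20 in GDX mice. Among 13 other Kupffer cell surface and scavenger genes, 5 and 12 were higher in XY, and among 15 lineage factors and growth factors, 6 and 11. Of 8 tested monocyte genes outside the list, 4 and 7 were higher in XY. Of 20 tested chemokines and cytokines, 8 were higher in XY in Intact mice, and 13 were higher in XY and 1 in XX in GDX mice. The 20 lysosomal and lipid-handling genes, most of which hepatocytes also express, did not share this direction: 4 were higher in XX and 0 in XY in Intact mice, and 6 and 4 in GDX mice.

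**Figure D3:**
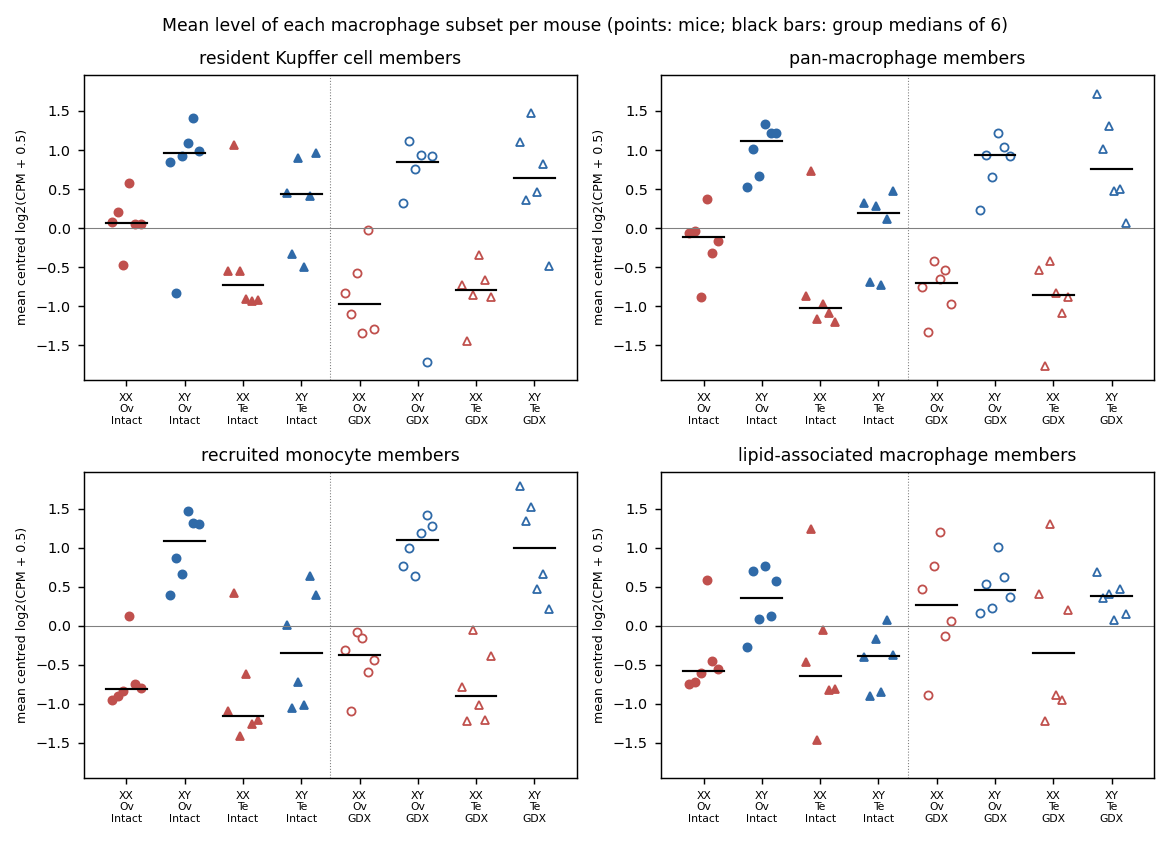
Mean level of each subset in each mouse (y axis: mean over the subset's genes of log2(CPM + 0.5), centred on its mean over 48 mice) in the 8 groups; red is XX, blue XY, circles Ov, triangles Te, filled Intact, open GDX, bars medians of 6. Pan-macrophage and recruited monocyte levels separate XY from XX in GDX mice without overlap, resident levels overlap through low XY mice, and lipid-associated levels overlap throughout.

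As a description with no test, the mean level of the pan-macrophage genes, on a log2(CPM + 0.5) scale centred over the 48 mice, was higher in XY than in XX by 0.952 in Intact mice and by 1.69 in GDX mice. For the recruited monocyte genes the difference was 1.13 and 1.63. It was 0.72 and 1.35 for the resident genes, and 0.355 and 0.398 for the lipid-associated genes. The lipid-associated mean combines *Itgax* and *Lgals3*, higher in XY, with *Mmp12*, *Gpnmb* and *Spp1*, higher in XX at least in GDX mice. In the XX Te Intact group the pan-macrophage mean ranged from -1.2 to 0.725 with a median of -1.03, and the top value belonged to replicate 2.

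The second comparison, the gonadal effect, set mice with ovaries against mice with testes. In Intact mice 17 of 30 members were higher with ovaries and none was lower, with a median log2 fold change (Ov minus Te) of 0.63. Of all genes 25.3% passed, 14.1% higher with ovaries, and the median was 0.04. Here 11 of 14 pan-macrophage genes passed, 3 of 5 resident, 1 of 4 recruited and 2 of 7 lipid-associated genes. *Tyrobp* was at 11.5 to 216 CPM (median 56.4) with ovaries and 11.9 to 87.8 CPM (median 24.9) with testes, and the ranges overlapped. Its log2 fold change was 1.10 ± 0.27 (SE, adjusted p = 0.00236). *C1qb* was at 39.6 to 218 CPM (median 103) and 30.7 to 114 CPM (median 41.5), with 0.83 ± 0.20 (SE, adjusted p = 0.0019). *Ctss* had 0.97 ± 0.21 (SE, adjusted p = 0.000644), *Clec4f* 0.64 ± 0.15 (SE, adjusted p = 0.00141) and *Vsig4* 0.81 ± 0.30 (SE, adjusted p = 0.0389). *Ly6c2* had 1.23 ± 0.36 (SE, adjusted p = 0.0113) and *Trem2* 0.85 ± 0.27 (SE, adjusted p = 0.0198).

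The remaining members that were higher with ovaries had log2 fold changes between 0.54 and 1.01: *Cd5l*, *Cd68*, *Lyz2*, *Mpeg1*, *Aif1*, *C1qa*, *C1qc*, *Fcgr1*, *Fcer1g* and *Lgals3*. Those that did not pass included *Marco* (-0.58 ± 0.49 SE), *Timd4* (0.41 ± 0.33 SE), *Itgax* (0.46 ± 0.38 SE), *Itgam* (0.69 ± 0.35 SE), *Cx3cr1* (0.37 ± 0.36 SE) and *Ccr2* (0.79 ± 0.32 SE). Within XY mice 15 members were higher with ovaries (15.5% of all genes passed), and within XX mice 1, *Clec4f* (5.82% of all genes), with median log2 fold changes of 0.95 and 0.32. Without the 4 libraries of high multimapping, which left 2 mice in XY Te Intact, the XY count was 3 (20.5% of all genes). The median log2 fold change of the members in XY mice was then 0.82. Without XX Te Intact replicate 2 the XX count was 10 (8.74%). All of these members were higher with ovaries. Whether XX and XY mice differed in this effect was not tested.

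This count depended on single libraries more than the XX minus XY counts did. It was 22 without XX Te Intact replicate 2 (30.1% of all genes), 10 without XX Ov Intact replicate 4 (25%), 11 without XY Te Intact replicate 4 (21.4%), and 8 without the 4 libraries of high multimapping, where 36.5% of all genes passed. With library totals it was 10, all higher, with 13.9% of all genes higher and 6.53% lower. T and NK cell genes moved with it: 9 of 11 were higher with ovaries and 1 lower, with a median log2 fold change of 1.66 over the list, and *Cd3d* had the highest, at 2.76 ± 0.39 (SE, adjusted p = 6.15e-07). B and plasma cell genes were higher with ovaries for 4 of 6, neutrophil genes passed for 0 of 9 (1 unadjusted), and dendritic cell genes for 0 of 6 (3 unadjusted). The part of these cells was not tested. In the main fit 25.3% of all genes passed, with 14.1% of all genes higher with ovaries. Of the pathway lists, 12 of 20 myeloid receptor signalling genes, 11 of 20 chemokines and cytokines, 8 of 13 other Kupffer cell genes, 6 of 15 lineage factors and 3 of 8 other monocyte genes were higher with ovaries and none was lower, while the lysosomal list had 7 higher and 2 lower with ovaries.

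After GDX no member passed (edgeR, 0 at an unadjusted p below 0.05, and 0 by DESeq2), and 0.0908% of all genes did. The log2 fold changes of the 30 ranged from -0.29 for *Timd4* to 0.75 for *Mmp12*, with a median of 0.04. *Tyrobp* was at 7.26 to 59.1 CPM (median 22.7) in mice that had had ovaries and 4.94 to 90.2 CPM (median 20.3) in mice that had had testes, with -0.01 ± 0.27 (SE, adjusted p = 1). A p that misses the threshold does not show that the groups were alike. For *C1qb* the log2 fold change was 0.07 ± 0.20 (SE).

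The third comparison, the ovariectomy effect, set Ov GDX against Ov Intact mice. Here 14 of 30 members passed, 5 up and 9 down after ovariectomy, a smaller share than the 69.4% of all genes that passed (36% higher, 33.4% lower). The median log2 fold change (GDX minus Intact) was -0.08 for the members and 0.06 for all genes. Of the 5 resident genes 3 fell, *Vsig4* with a log2 fold change of -1.55 ± 0.30 (SE, adjusted p = 1.84e-05), *Timd4* with -1.25 ± 0.33 (SE, adjusted p = 0.0011) and *Clec4f* with -0.57 ± 0.15 (SE, adjusted p = 0.00081). *Vsig4* lay at 17.5 to 307 CPM (median 154) in Intact and at 7.81 to 92.3 CPM (median 48.9) in GDX mice, with overlapping ranges. *Tyrobp* fell (-1.66 ± 0.27 SE, adjusted p = 1.28e-06), with 11.5 to 216 CPM (median 56.4) in Intact and 7.26 to 59.1 CPM (median 22.7) in GDX mice. *Lyz2*, *Aif1*, *Fcgr1*, *Ly6c2* and *Cd9* also fell, with log2 fold changes of -1.58, -1.04, -0.93, -1.20 and -1.34.

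The 5 members that were higher after ovariectomy were *Gpnmb* (2.0 ± 0.59 SE, adjusted p = 0.0026), *Itgax* (1.41 ± 0.37 SE, adjusted p = 0.000835), *Cx3cr1* (0.87 ± 0.34 SE, adjusted p = 0.0237), *Spp1* (0.71 ± 0.29 SE, adjusted p = 0.0252) and *Csf1r* (0.55 ± 0.20 SE, adjusted p = 0.0151). *Itgax* lay at 0.712 to 44.3 CPM (median 12) in Intact and at 1.91 to 103 CPM (median 28.4) in GDX mice, and both ranges spanned XX and XY mice. Within XX mice 15 members passed, 4 higher and 11 lower (55.1% of all genes), and within XY mice 7, 2 higher and 5 lower (59.4%). Those higher were *Cx3cr1*, *Gpnmb*, *Spp1* and *Itgax* in XX mice, and *Csf1r* and *Itgax* in XY mice. Whether XX and XY mice differed in this effect was not tested. Over both genotypes the C1q genes, *Cd68*, *Mpeg1* and *Adgre1* did not pass, with log2 fold changes between -0.42 and 0.17. With library totals the median of all genes moved from 0.06 to 0.27 and the shares of all genes to 47.8% higher and 24.4% lower, with 5 and 9 members as before.

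**Figure D4:**
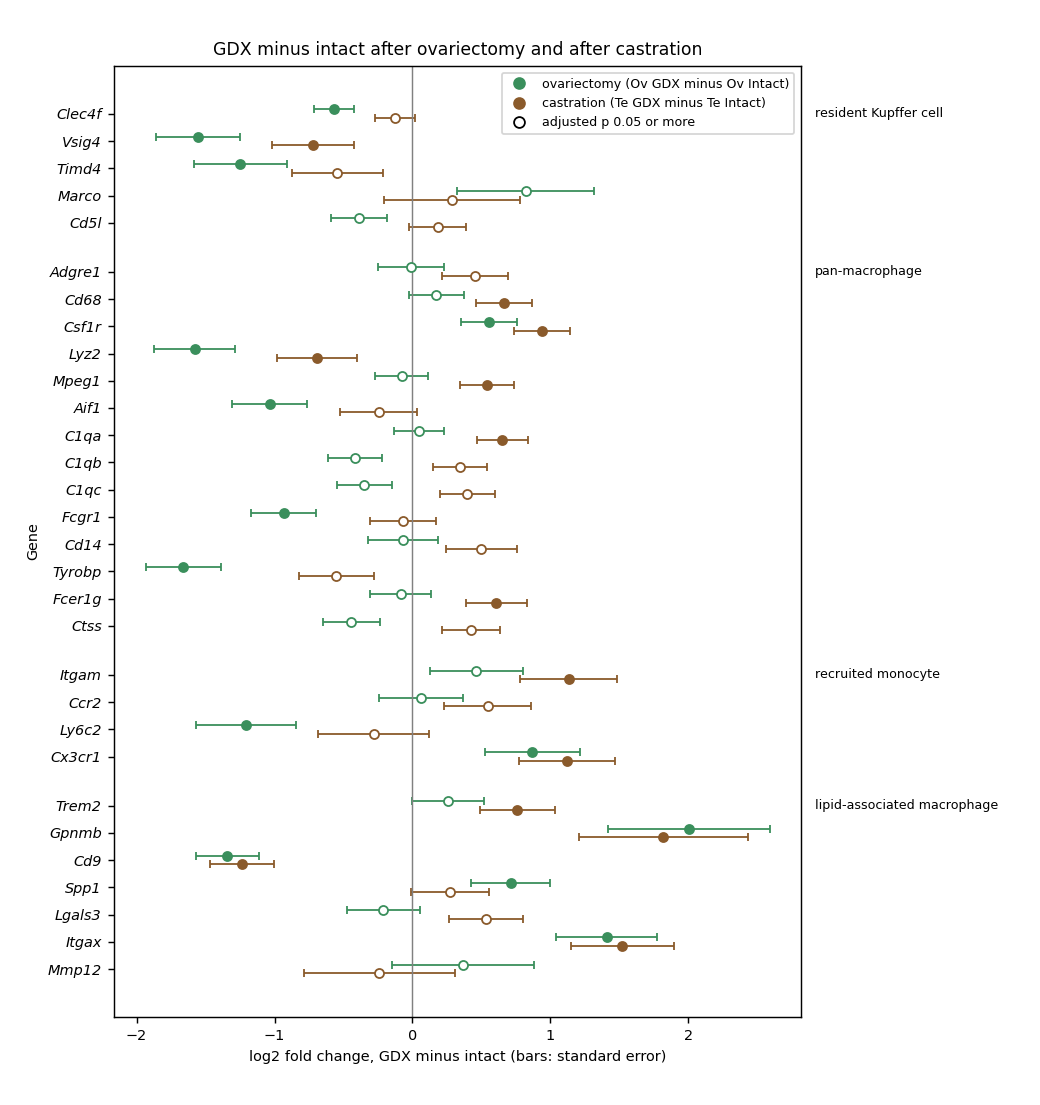
Log2 fold change, GDX minus Intact (x axis, with standard errors), of the 30 genes (y axis, by subset) after ovariectomy (green) and after castration (brown), 24 mice each. Open circles did not pass the test; *Gpnmb* and *Itgax* lie right of 0 and *Vsig4*, *Lyz2* and *Cd9* left of 0 in both, all passing.

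The fourth comparison, the castration effect, set Te GDX against Te Intact mice. Of all genes 63.3% passed (33.4% higher after castration, 29.9% lower), with a median log2 fold change of 0.07. Of 30 members 13 passed, with a median of 0.41. In the fit of 48 mice 3 were lower, a smaller share than among all genes, and 10 were higher, about the same share. The 10 were *Gpnmb* (1.82 ± 0.61 SE, adjusted p = 0.00952), *Itgax* (1.52 ± 0.37 SE, adjusted p = 0.000532), *Itgam* (1.13 ± 0.35 SE, adjusted p = 0.00504), *Cx3cr1* (1.12 ± 0.35 SE, adjusted p = 0.0051), *Csf1r* (0.94 ± 0.21 SE, adjusted p = 0.000134), *Trem2* (0.76 ± 0.27 SE, adjusted p = 0.0141) and, with log2 fold changes of 0.54 to 0.66, *Cd68*, *C1qa*, *Fcer1g* and *Mpeg1*. Those that fell were *Cd9* (-1.24 ± 0.23 SE, adjusted p = 1.36e-05), *Vsig4* (-0.72 ± 0.30 SE, adjusted p = 0.0326) and *Lyz2* (-0.69 ± 0.29 SE, adjusted p = 0.035). *Csf1r* lay at 25.5 to 109 CPM (median 44.4) in Intact and at 25 to 361 CPM (median 79.5) in GDX mice. *Itgax* lay at 0.565 to 38.6 CPM (median 2.28) in Intact and at 1.39 to 132 CPM (median 30.6) in GDX mice, and both genes had overlapping ranges.

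The castration count depended on a few libraries. Within XY mice 17 members passed, 16 of them higher (56.7% of all genes), and within XX mice 2, *Tyrobp* (-1.25 ± 0.39 SE) and *Cd9* (-1.26 ± 0.33 SE), both lower (37.1%). Without the 4 libraries of high multimapping, which left 2 mice in XY Te Intact, the XY count was 1 (10.7% of all genes). The median log2 fold change of the members in XY mice was then 0.625, against 0.979 with all mice. Without XX Te Intact replicate 2 the XX count was 4, 3 of them higher (32.1%), and the median log2 fold change of the members in XX mice went from -0.21 to 0.28. Whether XX and XY mice differed in this effect was not tested. Over both genotypes the count was 20, 19 of them higher, without XX Te Intact replicate 2, beside 63% of all genes, and 3 (*Csf1r* and *Itgax* higher, *Cd9* lower, 40.3% of all genes) without the 4 XY Te Intact libraries of high multimapping. Scaling to library totals in place of TMM moved the median of all genes from 0.07 to 0.27 and the member split from 10 higher and 3 lower to 16 and 1, beside 47.4% of all genes higher and 20.8% lower. Of 20 myeloid receptor signalling genes 14 were higher and 2 lower after castration, and *Syk*, a kinase downstream of Fc receptors, had the highest change of the list at 1.37 ± 0.26 (SE, adjusted p = 1.86e-05). The same list had 7 higher and 4 lower after ovariectomy. Of all genes 33.4% were higher and 29.9% lower after castration, and 36% and 33.4% after ovariectomy.

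Both operations were compared directly. The median difference of the 30 log2 fold changes, castration minus ovariectomy, was 0.59, against 0.04 over all genes. No member passed (edgeR, 11 at an unadjusted p below 0.05, 2 by DESeq2), and 5.6% of all genes did. Without XX Te Intact replicate 2 there were 13, all higher after castration than after ovariectomy, beside 9.35% of all genes. There were 4 without XX Ov Intact replicate 3, 2 without XY Te Intact replicate 1 or XY Ov Intact replicate 1, 2 without the 4 libraries of high multimapping, and 1 without XX Te GDX replicate 2.

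Genes of other cells were also counted after GDX. Of all tested genes 69.4% passed after ovariectomy (36% higher, 33.4% lower). After castration 63.3% passed (33.4% higher, 29.9% lower). Most of the lists below passed for a smaller share than all genes. After ovariectomy, neutrophil genes passed for 5 of 9 (1 higher, 4 lower), with *S100a8* at -3.88 ± 0.66 (SE, adjusted p = 2.16e-06), T and NK cell genes for 6 of 11, all lower, with *Cd3d* at -2.70 ± 0.38 (SE, adjusted p = 6.25e-08), B and plasma cell genes for 3 of 6, dendritic cell genes for 4 of 6, all higher, and red blood cell genes for 2 of 3. Stellate cell genes were higher for 5 and lower for 2 of 10, cholangiocyte genes higher for 3 of 6, endothelial genes passed for 3 of 10, hepatocyte genes for 4 of 6, and the 1 adipocyte and pancreas gene tested, *Cela1*, was lower. After castration the counts were 3 of 9 for neutrophil, 4 of 11 for T and NK cell, 1 of 6 for B and plasma cell, 3 of 6 for dendritic cell, 2 of 3 for red blood cell, 6 of 10 for stellate, 3 of 6 for cholangiocyte, 4 of 10 for endothelial and 3 of 6 for hepatocyte genes, and *Cela1* was lower. Their part in the members' values was not tested. Of the pathway lists, other Kupffer cell surface genes were lower for 7 of 13 after ovariectomy, and higher for 4 and lower for 3 after castration. Lineage factors were higher for 5 and lower for 4 of 15 after ovariectomy, and higher for 7 and lower for 2 after castration. Chemokines and cytokines were higher for 1 and lower for 9 of 20 after ovariectomy, and higher for 3 and lower for 6 after castration. Other monocyte genes passed for 3 of 8 after either operation, and lysosomal genes for 10 and 9 of 20.

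**Figure D5:**
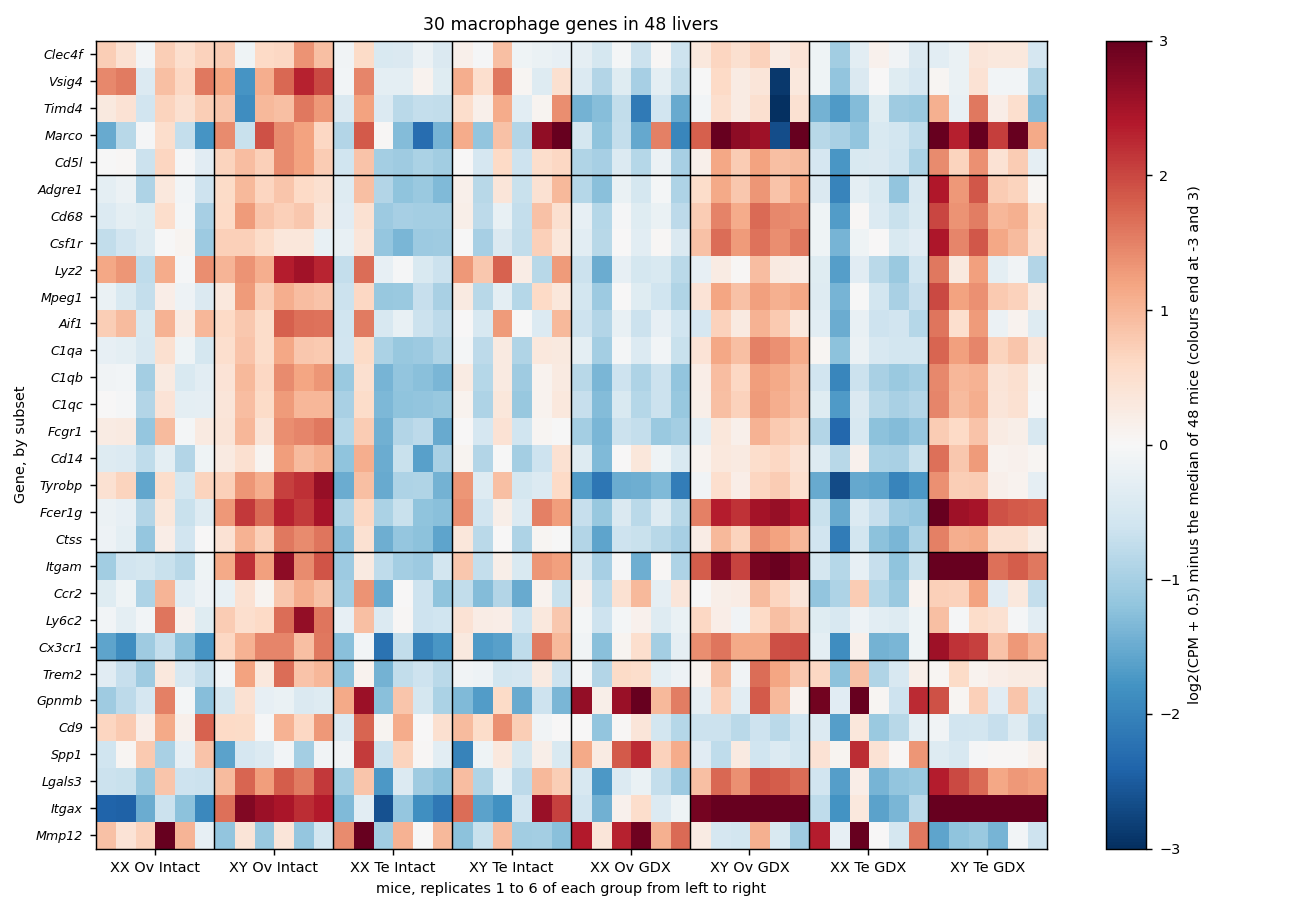
Level of the 30 genes (rows, by subset) in each of the 48 mice (columns, by group, replicates 1 to 6 from left to right), as log2(CPM + 0.5) minus the gene's median over all mice; colours end at -3 and 3. XY Ov Intact and both XY GDX groups are red over most rows, XX Te Intact replicate 2 stands out in its group, and *Gpnmb*, *Spp1* and *Mmp12* do not follow the rest.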

How the data were processed

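Liver RNA from 48 FCG mice was isolated with TRIzol and sequenced from KAPA mRNA HyperPrep libraries. Alignment to GRCm39 and read counting per gene were done with STAR 2.7.10a by the authors, who deposited the raw counts. They tested contrasts with DESeq2 1.36.0. The annotation release and the strand setting are not given in the sources used here, so reads of overlapping or antisense genes cannot be told apart. The counts' summary lines for unmapped, multimapping, ambiguous and out-of-gene reads (medians of 4.24% out of genes in Intact and 10.1% in GDX libraries) were left out of library sizes.

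Symbols came from reference tables and matched 56.0% of the 55414 identifiers, with all 30 members found, *Adgre1* through an older symbol. Groups followed the labels' genotype and treatment. The labels number no replicates, so mice carry numbers in accession order. edgeR 4.0.16 (R 4.3.3) fitted a mean per group to all 48 mice, with TMM scaling, filterByExpr (15414 genes kept) and robust quasi-likelihood tests, and p was adjusted over all genes by Benjamini-Hochberg. The SE is the absolute log2 fold change over the square root of F. RPKM used union exon lengths from an NCBIM37 annotation. On simulated data for the GDX chromosomal effect (15013 genes), 93.2% of genes changed by 1 on the log2 scale and 99.1% of those changed by 2 were recovered. Of 201 genes called there, 11 were false calls. Far fewer genes were changed there than passed in the mice, and no simulated library stood apart, so these rates may not hold here. No labels say that mice of a group came from separate litters, so p-values measure only the spread between these mice.

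The 30 members, the 16 lists of other genes and the tests were chosen with earlier results of these data known. All members are named. From the other lists, genes are named as the 2 highest or lowest that passed in the ovariectomy, castration or intact gonadal effect or as the first of a marker list, and any other was named after its values were seen. Alternatives were DESeq2 size factors, library totals, DESeq2 1.42.0, no filter, 10 reads in every mouse, 47 mice (as in plots of the study), the compared groups alone, 1 surrogate variable (sva 3.50.0), a fold change above 1.5, and each mouse left out. Those without the 4 libraries of high multimapping or without XX Te Intact replicate 4, the fits of single strata without libraries, and the subset means without mice were added after seeing the data.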

Additional observations from a re-analysis of the deposited data

Results flagged for a closer look

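In 45 of 240 sets of 6 mice (30 genes in 8 groups), 1 mouse stood apart. It lay farther from the next than Dixon's critical value of 0.625 of the range allows. The nominal rate of 1 in 20, or 12 sets, holds for normally distributed values and independent sets. These were CPM values without a log scale, and the 30 genes came from the same mice, so that 45 cannot be judged against 12. Of the 45 sets, 25 came from XX Te Intact replicate 2, which was the highest of its group. Its resident gene levels were 145 CPM for *Clec4f*, 170 for *Vsig4*, 34.4 for *Timd4*, 54.9 for *Marco* and 247 for *Cd5l*. Its pan-macrophage levels were 55.6 CPM for *Adgre1*, 29 for *Cd68*, 352 for *Lyz2*, 230 for *Mpeg1*, 17.2 for *Aif1*, 75.9 for *C1qa*, 114 for *C1qb*, 101 for *C1qc*, 15.3 for *Fcgr1*, 14.4 for *Cd14*, 65.6 for *Tyrobp*, 25.2 for *Fcer1g* and 125 for *Ctss*. In the same mouse *Itgam* was at 1.54 CPM, *Ccr2* at 11.4, *Ly6c2* at 1.28, *Gpnmb* at 9.06, *Spp1* at 120, *Lgals3* at 23.1 and *Mmp12* at 26 CPM. What set this mouse apart was not tested.

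XX Ov Intact replicate 4 was the highest of its group for *C1qa* (71 CPM), *Ccr2* (8.91), *Ly6c2* (2.4), *Gpnmb* (4.07), *Lgals3* (23.4) and *Mmp12* (30.5). XY Te Intact replicate 3 was the highest for *Clec4f* (183 CPM), *Gpnmb* (1.87) and *Mmp12* (4.33). XY Ov GDX replicate 5 was the lowest of its group for *Vsig4* (7.81 CPM) and *Timd4* (0.775).

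Single high values were those of *Marco* in XX Ov GDX replicate 5 (43.8 CPM), *Timd4* in XX Te GDX replicate 4 (11.4) and *Itgax* in XX Te GDX replicate 3 (7.69). In XY mice they were *Lyz2* in XY Ov GDX replicate 4 (209 CPM), *Spp1* in XY Ov GDX replicate 3 (33.3), *Gpnmb* in XY Ov Intact replicate 2 (1.71), *Ly6c2* in XY Ov Intact replicate 5 (5.48), *Gpnmb* in XY Te GDX replicate 1 (5.49) and *Trem2* in XY Te GDX replicate 2 (3.92).

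The XX minus XY difference changed with GDX by -1.11 ± 0.29 (SE, adjusted p = 0.0309) on the log2 scale for *Csf1r* and by -1.29 ± 0.31 (SE, adjusted p = 0.0214) for *Fcer1g*, in edgeR's test of the interaction. Neither gene passed without XX Te Intact replicate 2 or without the 4 libraries of high multimapping. GDX cannot be told apart here from longer feeding, older age and library makeup. Reads outside genes, which no comparison used, made up a median of 10.1% of GDX libraries and 4.24% of Intact libraries.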

How the results depend on the processing

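The counts of members that passed for the XX minus XY comparisons (22 in Intact mice, 26 in GDX mice, 27 over both) and for ovariectomy (14) stayed within 1.5 times of these values under every alternative run. The differences in subset means between XY and XX mice did so with library totals, with a pseudocount of 0.1 and without any 1 mouse of the cohort. Without the 4 libraries of high multimapping those of Intact mice went from 0.72 to 0.92 (resident), 0.95 to 1.29 (pan-macrophage), 1.13 to 1.66 (recruited) and 0.36 to 0.62 (lipid-associated), the last by more than 1.5 times. No result of a single member that was compared across the alternatives reversed. Some summaries did change direction. The median log2 fold change of the members after castration in XX mice went from -0.21 to 0.28 without XX Te Intact replicate 2. With library totals most genes called for XX minus XY in GDX mice were higher in XY rather than in XX. The median of all interaction terms also changed sign with library totals, as given below. For the intact gonadal effect (17) the count was 10 with library totals, 10 with no filter on low counts, 8 without the 4 libraries of high multimapping and 8 with the compared groups alone. For castration (13) it was 3 without those 4 libraries and 7 with 1 surrogate variable. For castration minus ovariectomy (0) it was 2 without the 4 libraries, 1 with 1 surrogate variable and 2 by DESeq2. For the interaction with GDX (2) it was 6 with library totals, 0 without the 4 libraries, 0 with 1 surrogate variable and 7 by DESeq2. The causes were not tested. Over fits that each lacked 1 mouse, the counts ran from 13 to 17 for ovariectomy, 11 to 20 for castration, 10 to 22 for the intact gonadal effect, 0 to 0 for the GDX gonadal effect, 17 to 23, 26 to 27 and 27 to 28 for XX minus XY in Intact, GDX and all mice, 0 to 13 for castration minus ovariectomy and 0 to 7 for the interaction. Library totals moved the share of higher calls among all genes called from 51.9% to 66.1% for ovariectomy, from 52.7% to 69.5% for castration, from 39.9% to 24.5% for XX minus XY in Intact mice and from 56.8% to 18.7% in GDX mice, and the median of all interaction terms from 0.04 to -0.12. With the compared groups alone 819 genes of all those tested passed for XX minus XY in Intact mice, against 1648. No paired analysis was possible because each mouse has its own identifier and the labels number no replicates. Members near 3 reads, such as *Itgam* in XX mice, are limited by depth.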

Other observations

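Among genes outside the list, several on the X chromosome had differences in the same direction as most members. They were chosen after their values were seen. *Tlr8*, a sensor of single-stranded RNA in phagocytes, was at 1.52 to 9.06 CPM in the 24 XX mice and 7.25 to 88.9 CPM in the 24 XY mice of both cohorts, with a log2 fold change (XX minus XY) of -2.97 ± 0.16 (SE, adjusted p = 1.93e-19). Its relative *Tlr7* had -2.0 ± 0.13 (SE) and *Tmsb4x*, which encodes the actin-binding thymosin beta 4, -2.47 ± 0.25 (SE). *Prps2*, a gene of nucleotide synthesis, had a smaller difference of -0.68 ± 0.04 (SE), but all 24 XX mice (20.2 to 29.5 CPM) lay below all 24 XY mice (33.1 to 50.9 CPM). *Msl3* (-0.91), *Hccs* (-0.89), *Arhgap6* (-0.82) and *Mid1* (-0.74) also passed, and *Tceanc* did not (0.09, adjusted p = 0.607). As background, a piece of the X chromosome carried on the Y- chromosome has been described in some FCG mice. Whether the mice measured here carry it is not given in the sources used here, and its part in the members' values was not tested.

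Among the chemokines and cytokines *Il6*, a cytokine made by activated macrophages, was lower after ovariectomy (-2.90 ± 0.51 SE, adjusted p = 3.68e-06). It was also lower after castration (-1.57 ± 0.67 SE, adjusted p = 0.0394). *Il6* had no read in 13 of 48 mice and a median of 0.259 CPM, near 3 reads, so that the size of these changes is uncertain. In the lysosomal list *Atp6v0d2*, a subunit of the proton pump of lysosomes, was higher with ovaries in Intact mice (2.28 ± 0.28 SE, adjusted p = 2.75e-08) and higher after castration (2.51 ± 0.28 SE, adjusted p = 8.13e-10), while *Cstb*, an inhibitor of cathepsins, was lower after ovariectomy (-1.92 ± 0.23 SE, adjusted p = 1.28e-09) and after castration (-1.39 ± 0.22 SE, adjusted p = 1.17e-06). Of the stellate cell list *Col1a1*, a chain of fibrillar collagen, was higher after ovariectomy (2.09 ± 0.41 SE, adjusted p = 2.02e-05) and after castration (1.23 ± 0.40 SE, adjusted p = 0.00703).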
